A study of Mus musculus with 24 samples.

Results

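The enzymes described here make, activate or break down the oxygenated fatty acids called eicosanoids and oxylipins. They are encoded by 10 genes (Ptgs1, Ptgs2, Ptges, Alox5, Alox5ap, Alox12, Alox15, Lta4h, Ephx1 and Ephx2). The members were found by an exact match of the gene name that the array's scanner output gives each probe, which returned 16 of 56605 probes for 10 of 37074 gene names. Hepatic RNA came from 24 male mice of strain C57Bl6J, each on its own one-colour Agilent array. All mice were of the third generation of lineages whose growing diet held added oil. The 8 HFoleic mice (labelled HFD_Cont) came from the control fatty acid lineage, given high-oleic sunflower oil, and ate a high-fat, high-sucrose diet. The 7 HFepa mice (labelled HFD_O3) came from the n-3PUFA lineage, whose oil was an EPA-rich fish oil (EPA is eicosapentaenoic acid), and ate the same obesogenic diet. The 9 reference mice (labelled STD_Cont) came from the control lineage and ate a low-fat diet. Mice were killed while fasting, and their age is not in the labels. Since EPA-lineage mice on the low-fat diet are not among the groups, diet and lineage cannot be told apart in HFepa against reference. The question put to these genes was whether the obesogenic diet, or the lineage under that diet, went with a different hepatic level of the enzymes that act on arachidonic acid and EPA.

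Eicosanoids form from polyunsaturated fatty acids freed from membrane phospholipids. Cyclooxygenases open the prostaglandin and thromboxane branch, lipoxygenases open the leukotriene and hydroxy fatty acid branch, and cytochrome P450 enzymes make epoxides and omega-hydroxylated acids. EPA competes with arachidonic acid for these enzymes. In liver the lipoxygenase and cyclooxygenase steps are known mainly from Kupffer cells and from blood-derived cells. Epoxide hydrolases and P450 enzymes, in contrast, are abundant in hepatocytes.

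Detection came first, because a probe that does not rise over background holds no usable comparison. The deposited table of log2 values, filtered and quantile normalized by the authors, held 10 of the 16 probes, for 7 of the 10 genes. Of these, 8 were well above background on all 24 arrays. The other two were the second Ptgs1 probe (4 of 9 reference, 6 of 8 HFoleic and 4 of 7 HFepa arrays) and the Alox12 probe (8 of 9, 6 of 8 and 4 of 7 arrays). The 6 probes outside the table were well above background on 0 to 3 of the 24 arrays. They comprised each probe of Ptgs2, Alox5 and Alox15, a second Alox12 probe and both remaining Ptges probes. For Ptgs2, Alox5 and Alox15 no difference between groups was detectable on these arrays.

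**Figure D1:**
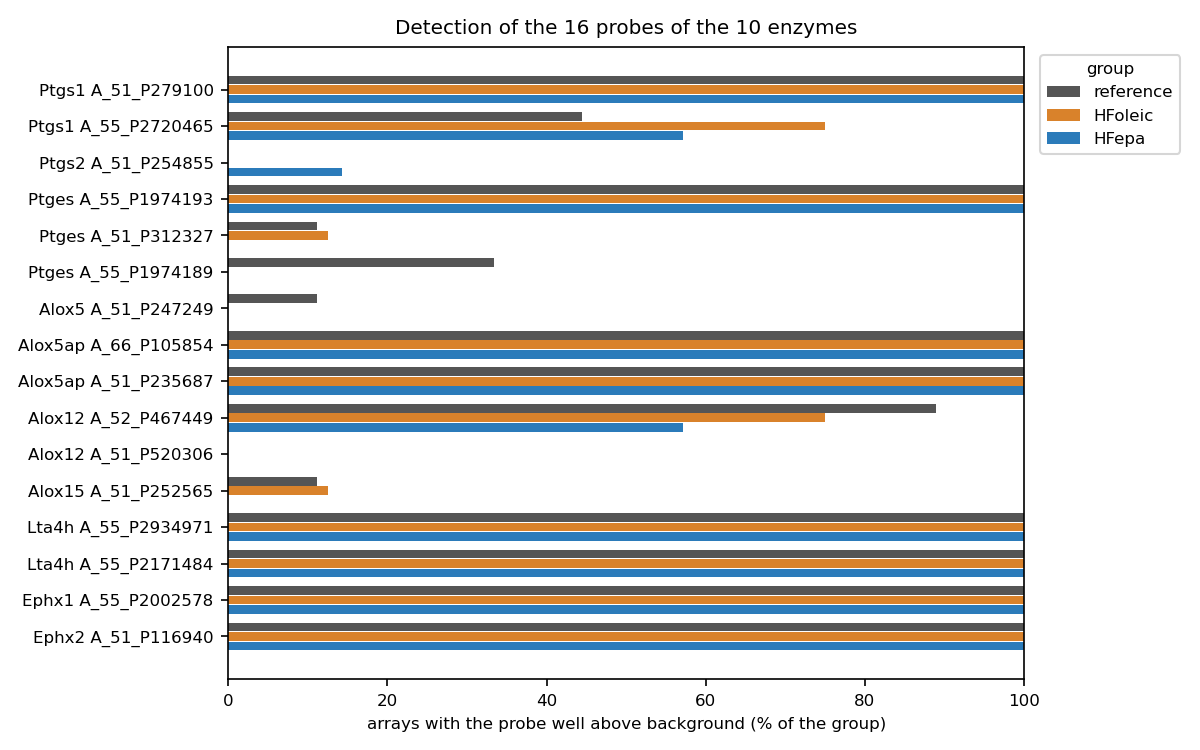
Share of the arrays of each group (9 reference, 8 HFoleic, 7 HFepa), in percent, on which each of the 16 probes was marked well above background by the scanner software. The probes of Ephx1, Ephx2, Lta4h and Alox5ap reach 100 in every group, and those of Ptgs2, Alox5 and Alox15 were detected on at most 1 array of any group.

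Sequence is shown for Ptges and Alox5ap, the genes for which the place of the probe in the transcript matters to the reading. The scanner files place all 3 Ptges probes on the minus strand of mm9, at chr2:30744995-30745054, chr2:30747838-30747897 and chr2:30748214-30748273, which correspond to positions 3583, 740 and 364 of the same transcript. Both Alox5ap probes lie on the plus strand, at chr5:150099572-150099631 (position 798 of its transcript) and chr5:150099347-150099406 (position 577). Of each 60-base probe, 30 bases are printed 5′ to 3′. Capitals mark a polyadenylation signal hexamer, searched as AATAAA or ATTAAA on the probe's own strand.
Ptges A_55_P1974193, position 3583: aagtcagccccaATTAAAtgctttccttta
Ptges A_51_P312327, position 740: gaggacatccttcacctcacaaaatgcctt
Ptges A_55_P1974189, position 364: gttgtcctcacaggccgtgtggtacacacc
Alox5ap A_66_P105854, position 798: gtgttttcctaaAATAAAgggtatagacaa
Alox5ap A_51_P235687, position 577: gcttctgctcctcttcaagctgtagatgct
The hexamer occurred in 2 of the 16 probes, and in 13.4% of all probes and 14.6% of the probes of the deposited table, so its presence is a description of these probes. Among the Ptges probes, the one with the hexamer, which lies farthest along the transcript, was well above background on all 24 arrays. The probes at positions 740 and 364 were well above background on 2 and 3 arrays. The Ptges result given further on therefore rests on 1 probe, for which the other 2 could not serve as a check. All 3 are annotated to the same transcript, and only 1 was regularly detected. Whether the signal of the bright probe came from the Ptges messenger RNA that encodes the synthase was not tested. Whether a probe lay in an exon or untranslated region was not analysed here, since no annotation of mm9 was used.

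Over the whole table limma called 2122 of 32176 probes in HFoleic against reference (6.59%), 110 in HFepa against reference (0.342%, of which 0.159% higher and 0.183% lower) and 0 in HFepa against HFoleic. For the last comparison the count at an unadjusted p under 0.05 was 2969, and the t-test of the study's methods, with Benjamini-Hochberg adjustment, called 0 (3566 unadjusted). The median difference over all probes was 0.00 on the log2 scale in each comparison. The correlation between arrays within a group was 0.974 to 0.995, and 50.9% to 60.8% of probes were well above background per array. Hepatocyte markers (10 of 10 genes above background on all arrays) averaged between 16.68 and 17.08 log2 units on every array, as the tissue label says. Reference replicate 5 stood apart in lists of other cell types. Its mean over 8 stellate cell and fibroblast genes was 10.39, against a reference median of 8.88, and over 6 bile duct genes 8.87, against 7.35. Reference replicate 4 had the highest mean over 6 adipocyte genes (9.29, group median 8.04). In bulk liver, fewer cells of a type and less RNA per cell cannot be told apart.

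Of the 10 enzyme probes in the table, 1 was called in HFoleic against reference (2 at an unadjusted p under 0.05, by limma and by the methods' t-test alike). With 6.59% of all probes called, 1 of 10 is no count that sets these enzymes apart. In HFepa against reference 0 were called by either tool (1 unadjusted), and in HFepa against HFoleic 0 were called by either tool (0 unadjusted). The medians over the 10 probes were 0.00, 0.00 and 0.03 log2 units in the 3 comparisons, beside 0.00 over all probes. The 2 comparisons against reference share their reference arrays, so their values are given side by side and are not independent.

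**Figure D2:**
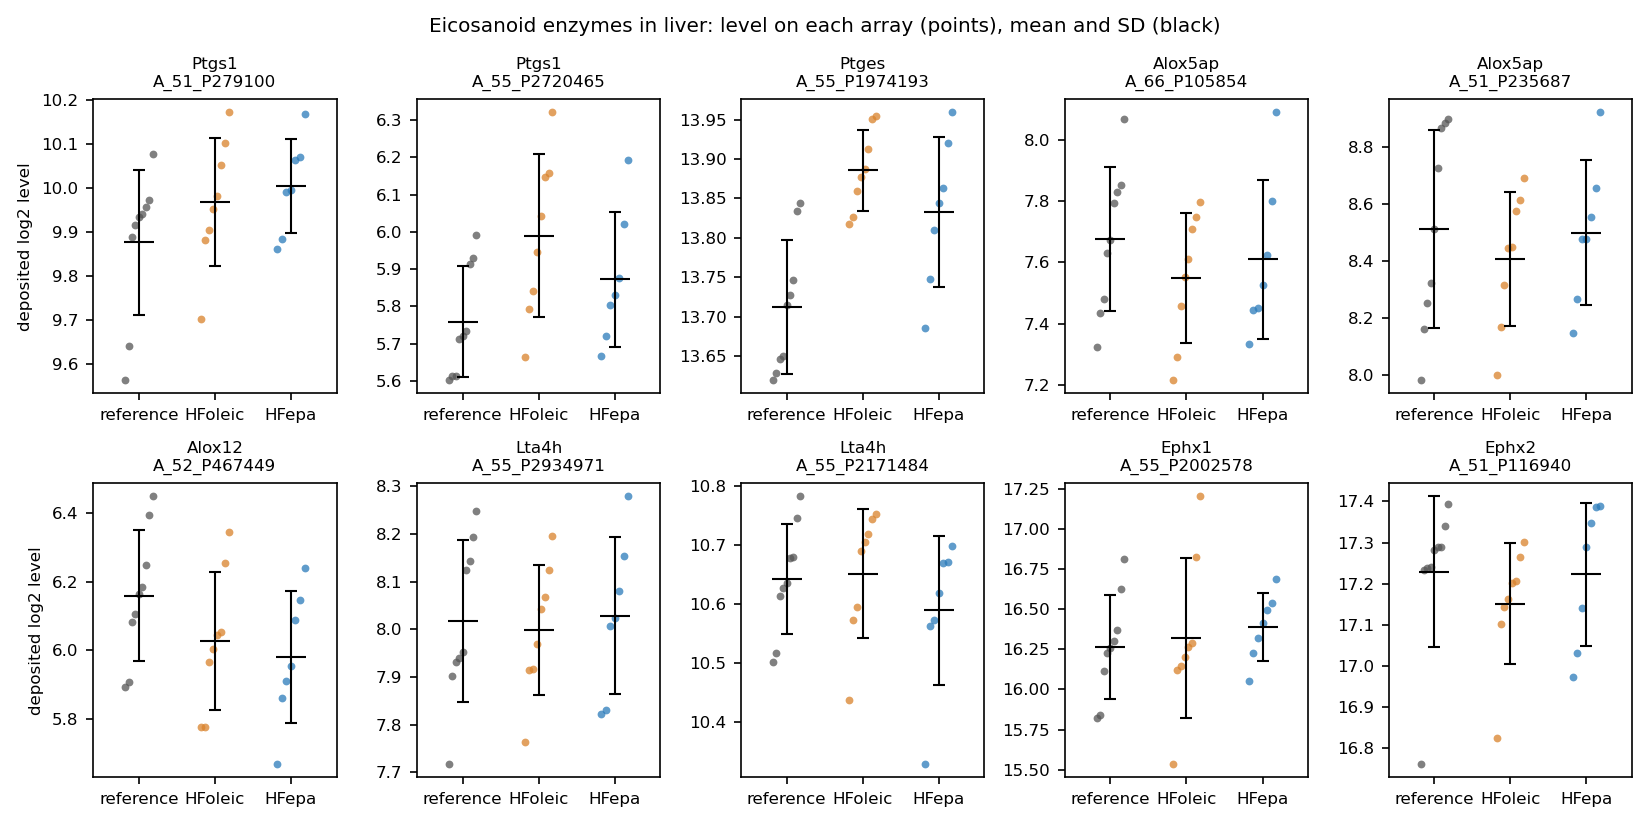
Deposited log2 level of the 10 enzyme probes on each array, by group (9 reference, 8 HFoleic, 7 HFepa). Black marks are the mean with its SD, and each panel has its own axis, which does not start at 0. In the Ptges panel the HFoleic arrays (13.82 to 13.95) lie in and above the upper end of the reference range (13.62 to 13.84), and the groups overlap in every panel.

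In the cyclooxygenase branch, the probe that passed the test was that of Ptges, microsomal prostaglandin E synthase, which turns the cyclooxygenase product into prostaglandin E. Its log2 level ran from 13.62 through a median of 13.71 to 13.84 in reference, from 13.82 through 13.88 to 13.95 in HFoleic and from 13.68 through 13.84 to 13.96 in HFepa. The HFoleic arrays began just below the highest reference arrays, and the HFepa arrays overlapped both groups. This Ptges probe was higher in HFoleic than in reference by 0.17 log2 units (12.8%, SE 0.047, 95% CI 0.08 to 0.27, limma adjusted p 0.0258). Of the HFoleic arrays, 8 of 8 lay above the reference mean. Within the 3 slides that difference was 0.11, 0.28 and 0.15. The probe varied little between mice of a group, with a residual SD of 0.079 log2 units, at percentile 1.40 of the table (median probe 0.187). HFepa exceeded reference by 0.12 (95% CI 0.02 to 0.22, adjusted p 0.284), with slide values from -0.02 to 0.19, and differed from HFoleic by -0.05 (95% CI -0.16 to 0.05, adjusted p 0.790). The order of the means was thus HFoleic, HFepa, reference, and HFepa was not separated from either neighbour after adjustment. Without reference replicate 5 the HFoleic difference was 0.19 (adjusted p 0.0163). It lost the call without reference replicate 1 (0.16, adjusted p 0.0540) or HFoleic replicate 8 (0.16, adjusted p 0.0567), and also with median centring in place of quantile normalization (adjusted p 0.0904), with no filter on dim probes (adjusted p 0.0564) and with the replicate number as a block (adjusted p 0.0787).

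The Ptges probes outside the table are given on another scale, log2 median signal quantile normalized over all probes. The probe at position 364 was well above background on 3 reference arrays and on 0 arrays of the other groups. Its reference values ran from 5.10 through 5.45 to 6.84, the HFoleic values from 5.19 through 5.38 to 5.61 and the HFepa values from 5.14 through 5.26 to 5.61. The single high array was reference replicate 9. The means were 5.62 in reference, 5.37 in HFoleic and 5.32 in HFepa. The higher reference mean was not tested, and 6 of the 9 reference arrays were themselves not well above background. So near background, these values give no direction to set beside that of the Ptges probe in the table. The probe at position 740 was above background on 1 reference and 1 HFoleic array.

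Ptgs1 encodes cyclooxygenase-1, the constitutive form. Its probe on the RefSeq transcript (chr2:36107644-36107703, plus strand) ran from 9.56 through 9.93 to 10.08 in reference, from 9.70 through 9.97 to 10.17 in HFoleic and from 9.86 through 9.995 to 10.17 in HFepa. All groups overlapped over most of their range. HFoleic differed from reference by 0.09 log2 units (95% CI -0.06 to 0.24, adjusted p 0.530), HFepa from reference by 0.13 (95% CI -0.03 to 0.28, adjusted p 0.501) and HFepa from HFoleic by 0.04 (95% CI -0.12 to 0.19, adjusted p 0.933). Differences beyond 0.28 in size lay outside all 3 intervals. The second probe (chr2:36096929-36096988), designed on an Ensembl transcript, was near the detection limit. It was well above background on 14 of 24 arrays, with levels from 5.60 (reference) to 6.32 (HFoleic). It differed by 0.23 in HFoleic against reference (95% CI 0.05 to 0.41, limma unadjusted p 0.0156, adjusted p 0.128), with slide values from 0.20 to 0.26. In HFepa against reference this second probe gave 0.11 (limma adjusted p 0.660). In HFepa against HFoleic it gave -0.12 (limma adjusted p 0.744), opposite in sign to the RefSeq probe. Its deviations from the group means correlated at 0.38 with those of the RefSeq probe over 24 arrays, a looser relation than that of the Alox5ap pair described further on. With the row of the slide as a block its limma adjusted p in HFoleic against reference was 0.0142.

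Ptgs2, the inducible cyclooxygenase-2 (chr1:151954744-151954803, plus strand), was well above background on 1 of 24 arrays, in HFepa. Its log2 median signal ran from 4.74 to 5.22 in reference, from 4.55 to 5.16 in HFoleic and from 4.83 to 5.73 in HFepa. These values are close to the array's floor and carry no order between groups.

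In the lipoxygenase branch, 0 of the 5 probes in the table passed the test in any comparison by limma or by the methods' t-test (0 at an unadjusted p under 0.05 by either). Alox5, the 5-lipoxygenase that starts leukotriene synthesis (chr6:116360326-116360385, minus strand), was above background on 1 array, reference replicate 9, where it reached 6.73 against 4.85 to 5.32 on the other 8 reference arrays. The HFoleic and HFepa values lay between 4.81 and 5.58. Reference replicate 9 was also the array with the highest value of the Ptges probe at position 364 and, at 7.00, with the highest mean of the platelet markers. What these values share was not tested.

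Alox5ap, whose protein hands arachidonic acid to 5-lipoxygenase, was in contrast well above background with both probes on all 24 arrays. The probe at position 577 ran from 7.98 through 8.51 to 8.90 in reference, from 7.998 through 8.45 to 8.69 in HFoleic and from 8.15 through 8.48 to 8.92 in HFepa. The groups overlapped almost fully. The differences were -0.10 for HFoleic against reference (95% CI -0.38 to 0.17, adjusted p 0.735), -0.01 for HFepa against reference (95% CI -0.30 to 0.27, adjusted p 0.987) and 0.09 for HFepa against HFoleic (95% CI -0.20 to 0.39, adjusted p 0.896). The probe at position 798 gave -0.13, -0.07 and 0.06, with adjusted p of 0.578, 0.873 and 0.924. Deviations of the pair from the group means correlated at 0.80 over 24 arrays, so both probes followed the same mice up and down within groups.

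Lta4h encodes the hydrolase that makes leukotriene B from leukotriene A. Its RefSeq-based probe (chr10:92947503-92947562, plus strand) ran from 10.50 through 10.63 to 10.78 in reference, from 10.44 through 10.70 to 10.75 in HFoleic and from 10.33 through 10.62 to 10.70 in HFepa. The differences were 0.01 (95% CI -0.11 to 0.13, adjusted p 0.956), -0.05 (95% CI -0.18 to 0.07, adjusted p 0.781) and -0.06 (95% CI -0.19 to 0.06, adjusted p 0.800). A change of more than 0.19 log2 units in either direction was outside all of these intervals, and the residual SD of 0.109 was at percentile 8.69 of the table. The second probe (chr10:92926871-92926930), designed on a different transcript, gave differences between -0.02 and 0.03 and followed the first with a correlation of only 0.07 within groups. The residual SD of this second probe was 0.158, at percentile 34.0 of the table.

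Alox12 encodes the platelet-type 12-lipoxygenase. The probe in the table (chr11:70055715-70055774, minus strand) ran from 5.89 through 6.16 to 6.45 in reference, from 5.78 through 6.02 to 6.34 in HFoleic and from 5.67 through 5.95 to 6.24 in HFepa. Levels were near the detection limit, and the groups overlapped. HFoleic differed from reference by -0.13 (95% CI -0.32 to 0.06, adjusted p 0.475) and HFepa by -0.18 (95% CI -0.38 to 0.02, adjusted p 0.463), with negative slide values on each of the 3 slides in both comparisons. Platelet markers were read beside it. Of the 8 platelet genes listed, 5 were in the table, 1 of them (Pf4) above background on all arrays, and all 5 had a lower mean in HFoleic than in reference, 4 of 5 had a lower mean in HFepa than in reference and 4 of 5 had a higher mean in HFepa than in HFoleic (median 0.14, Alox12 -0.05), while 0 passed the test by limma or by the methods' t-test (2, 0 and 0 of 5 at an unadjusted p under 0.05 by limma, and 2, 0 and 1 by the t-test). Their mean level ranged from 6.44 to 7.00 in reference, from 6.16 to 6.60 in HFoleic and from 6.33 to 6.66 in HFepa. The defining marker Gp1ba was above background on 0 arrays. The part of platelets in the Alox12 values was not tested. The second Alox12 probe was above background on 0 arrays.

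Alox15, the 12/15-lipoxygenase of mouse macrophages (chr11:70159115-70159339, minus strand), was above background on 2 of 24 arrays, 1 in reference and 1 in HFoleic. Its log2 median signal lay between 4.84 and 5.94 on all arrays with a usable spot. The HFoleic array marked above background, replicate 3, was the 1 array without a usable spot and so gives no level.

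Of the epoxide hydrolases, Ephx2 had a residual SD of 0.169 log2 units, at percentile 40.6 of the table, and Ephx1 one of 0.368. Their spreads were not tested against each other. Ephx2, the soluble hydrolase that turns P450-made epoxy fatty acids into diols, ran from 16.76 through 17.28 to 17.39 in reference, from 16.82 through 17.18 to 17.30 in HFoleic and from 16.97 through 17.29 to 17.39 in HFepa (chr14:66703319-66703378, minus strand). Reference replicate 5 and HFoleic replicate 2 lay well below the rest of their groups. The differences were -0.08 (95% CI -0.25 to 0.09, adjusted p 0.664), -0.01 (95% CI -0.18 to 0.17, adjusted p 0.987) and 0.07 (95% CI -0.11 to 0.25, adjusted p 0.853). Changes of more than 0.25 log2 units were outside these intervals. Without reference replicate 5 the first difference was -0.14 (adjusted p 0.269), and without HFoleic replicate 2 it was -0.03 (adjusted p 0.880).

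Ephx1, the microsomal hydrolase known mostly for xenobiotic epoxides, spread widely between mice fed alike (chr1:182919689-182919748, minus strand). Its level ran from 15.82 through 16.26 to 16.81 in reference, from 15.54 through 16.23 to 17.20 in HFoleic and from 16.05 through 16.41 to 16.69 in HFepa. The lowest and the highest of all 24 values, HFoleic replicates 2 and 3, were on the same slide and in the same group, 1.67 log2 units apart. The residual SD of 0.368 was at percentile 90.4 of the table. Group differences of 0.06 (95% CI -0.29 to 0.41, adjusted p 0.896), 0.13 (95% CI -0.23 to 0.49, adjusted p 0.830) and 0.07 (95% CI -0.30 to 0.44, adjusted p 0.949) were small beside that spread, and changes of up to 0.49 log2 units lay inside the intervals. Without HFoleic replicate 3 the first difference was -0.07.

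**Figure D3:**
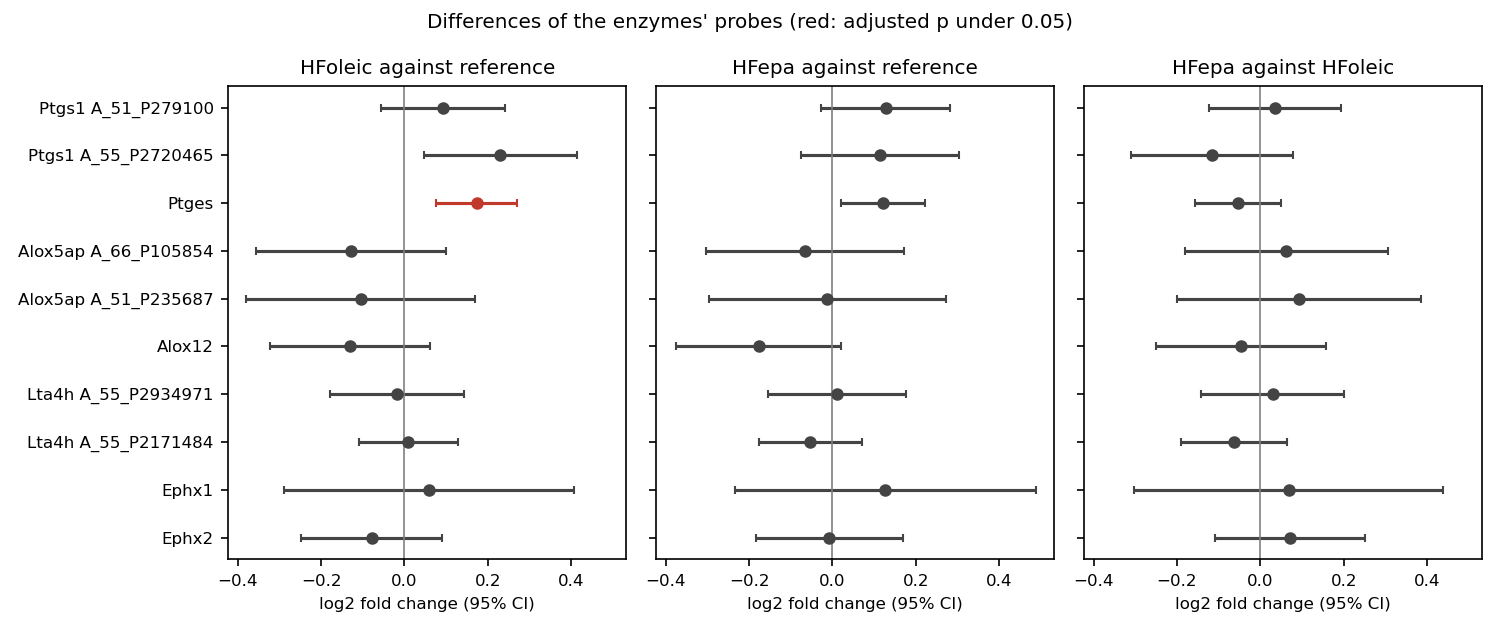
Differences of the 10 enzyme probes on the log2 scale with 95% confidence intervals from limma, in HFoleic against reference, HFepa against reference and HFepa against HFoleic. The red point is Ptges in HFoleic against reference (0.17). Intervals of Ephx1 are the widest and those of Ptges the narrowest.

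Ptgs1 and Alox5ap, which are known from macrophages, were set against markers of that cell type within groups. All 14 macrophage and Kupffer cell genes with an array probe were above background on all 24 arrays, and 0 of their 20 probes were called in any comparison by limma or by the methods' t-test (1, 0 and 0 at an unadjusted p under 0.05 by each). The brightest probe had the higher mean for 11 of 14 genes in HFoleic against reference (median 0.15). For HFepa against reference and HFepa against HFoleic it was 13 of 14 each time (medians 0.25 and 0.10). Over all 21559 genes of the table the counts were 10426, 10825 and 11190. In the same order, Ptgs1 differed by 0.09, 0.13 and 0.04, and Alox5ap by -0.10, -0.01 and 0.09. The part of macrophages in these group differences was not tested. The mean level of the 14 markers ranged from 10.14 to 11.25 in reference, from 10.35 to 11.27 in HFoleic and from 10.60 to 11.38 in HFepa. Over 24 arrays, and after subtraction of the group means, Ptgs1 followed this mean with a Pearson correlation of 0.80 and a Spearman correlation of 0.74 (permutation p 1e-05 and 5e-05 over 100000 resamples, two-sided, the same after adjustment over 2 relations). The first p is the smallest that these resamples can give. Without the 2 arrays farthest from the median of the markers the Pearson correlation was 0.67 (permutation p 0.00058). Within slides it was 0.96, 0.45 and 0.82, and within groups 0.74 in reference, 0.91 in HFoleic and 0.77 in HFepa.

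Alox5ap followed the same markers with a Pearson correlation of 0.81 and a Spearman correlation of 0.81 (permutation p 1e-05 and 2e-05, adjusted 1e-05 and 4e-05), and 0.72 (permutation p 0.0002) without the 2 farthest arrays. Within slides the correlation was 0.88, 0.90 and 0.62, and within groups 0.89 in reference, 0.64 in HFoleic and 0.84 in HFepa. The sign was positive in each group and on each slide for both genes. What else the arrays share, such as RNA quality, was not tested. Neutrophil markers, of which 7 of 10 genes were in the table, had means of 6.98 to 7.32 in reference, 7.08 to 7.80 in HFoleic and 7.12 to 7.57 in HFepa, and 0 passed the test by limma or by the methods' t-test in any comparison (1, 0 and 0 of 7 at an unadjusted p under 0.05 by limma, and 1, 1 and 0 by the t-test).

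**Figure D4:**
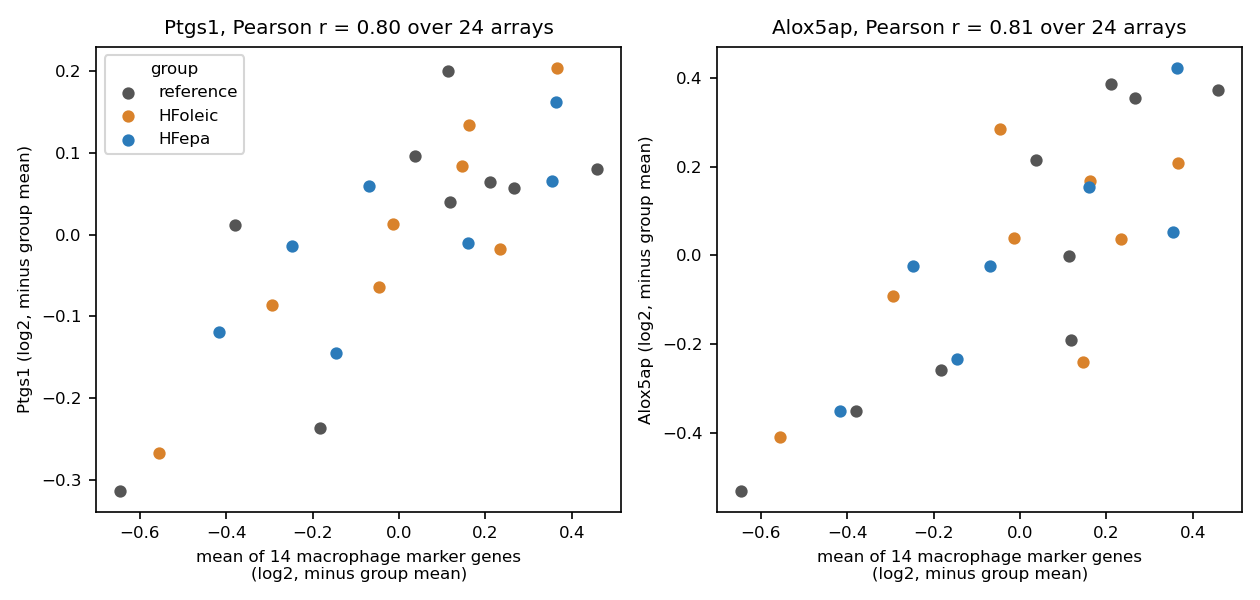
Ptgs1 (left) and Alox5ap (right, probe at position 577) against the mean of 14 macrophage and Kupffer cell marker genes, each point 1 array, all in log2 units after subtraction of the group mean. Both clouds rise from lower left to upper right, with Pearson correlations of 0.80 and 0.81, and the groups are interleaved.

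The genes whose deviations from the group means were most like those of a member were looked up among 20369 probes over 24 arrays, as a description without a test. For Ptgs1 they were Adgre5 (Pearson correlation 0.87), Sdc3 (0.83) and Csf1r (0.82), the last of which is also 1 of the 14 macrophage markers. For Alox5ap they were Fcgr3 (0.88), Itgb2 (0.86) and Fcgr4 (0.85). For Ptges the nearest were Abcg8 (0.73), Echdc2 (0.72) and Mrpl23 (0.70). Ephx1 was followed most closely by Gas2l1 (0.93), Med27 (0.91) and Rnf11 (0.91). The nearest genes of Ephx2, Phyh (0.82), Acad11 (0.81) and Cyp2d26 (0.80), had lower rank correlations (0.55 to 0.59) than linear ones. Lta4h was nearest to Stxbp6 (0.83), Vps52 (0.83) and Sympk (0.81).

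The rest of the pathway was read from a list of 103 further genes for phospholipases, synthases, reductases, P450 enzymes, receptors and transporters, of which 99 were on the array and 73, with 100 probes, in the table. In HFoleic against reference, 10 of these 100 probes passed the test (4 higher and 6 lower, for 8 genes), beside 6.59% of all probes (3.69% higher and 2.9% lower). The methods' t-test called 3 of these 100 probes, and 1691 of all 32176. The median over the 73 brightest probes was -0.02 log2 units and that over all genes -0.01. In HFepa against reference and in HFepa against HFoleic 0 passed (10 and 10 at an unadjusted p under 0.05, beside 12.9% and 9.23% of all probes), and the methods' t-test also called 0 (7 and 17 unadjusted).

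The omega-hydroxylases held 4 of the 6 lower probes, for 3 genes. These were 4 of their 19 probes in the table, beside 2.9% of all probes called lower. These P450 enzymes of the Cyp4 family hydroxylate arachidonic acid and other fatty acids at the end of the chain. Cyp4a14 ran from 9.88 through 10.40 to 10.79 in reference, from 9.37 through 9.70 to 9.93 in HFoleic and from 9.99 through 10.14 to 10.62 in HFepa. HFoleic and reference overlapped only between 9.88 and 9.93. Cyp4a14 fell by 0.71 log2 units in HFoleic (SE 0.111, adjusted p 0.000789), with slide values from -0.89 to -0.62, and differed by -0.23 in HFepa (adjusted p 0.419). HFepa exceeded HFoleic by 0.49 (95% CI 0.24 to 0.73, limma unadjusted p 0.0004, adjusted p 0.192), in a comparison where 0% of probes were called. Cyp4a14 is named for its low HFoleic values. The comparison with HFepa uses the same HFoleic arrays, so it is not a separate result. For Cyp4a10, 2 of 3 probes fell in HFoleic, by 0.58 and 0.66 (adjusted p 0.0376 and 0.0335), and the third gave -0.64 (adjusted p 0.0920). Cyp4a12a, known as a main maker of omega-hydroxylated arachidonic acid in mouse, fell by 1.04 (adjusted p 0.0377) with a wide HFoleic range of 11.72 to 14.08, and 7 of 8 HFoleic arrays lay below the reference mean. Of 13 omega-hydroxylase genes in the table, the brightest probe had a lower mean in HFoleic than in reference for 10 and a higher one for 3. Over all 21559 genes of the table it was lower for 11133 and higher for 10426. Cyp4a genes have near-identical copies, and the probes were not checked for matches to them, so these probes and genes may not be separate counts. Reference replicate 5 was the lowest reference array for Cyp4a10 and Cyp4a12a, and without it the differences were -0.72 and -0.81 for Cyp4a10 and -1.21 for Cyp4a12a.

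Among the prostanoid synthases and reductases, Hpgd and Ptgr2 were higher in HFoleic. Hpgd, the dehydrogenase that inactivates prostaglandin E, ran from 10.74 through 11.66 to 12.57 in reference and from 12.04 through 12.26 to 12.59 in HFoleic, a rise of 0.60 (SE 0.173, adjusted p 0.0356). HFepa ran from 11.69 through 12.09 to 12.57. No HFoleic array lay below 12.04, whereas most reference arrays did. Ptgr2, a reductase of the oxidized prostaglandins that Hpgd makes, rose by 0.23 and 0.32 with its 2 probes (adjusted p 0.0402 and 0.0403). Of the 13 genes of this list in the table, these 2 were called higher and 0 lower. Over all 21559 genes of the table, 1006 were called higher and 804 lower. The brightest probe had a higher mean in HFoleic for 8 of the 13 and a lower one for 5. The other reductases did not pass, with 0.26 for Ptgr1 (adjusted p 0.434), -0.41 for Cbr1 (adjusted p 0.158) and -0.34 for Cbr3 (adjusted p 0.579). Cyp2j5, an epoxygenase of liver and kidney, rose by 0.42 with 1 of its 2 probes (adjusted p 0.0246, the other 0.52 with adjusted p 0.0578), the 1 call among 22 probes of 16 Cyp2c and Cyp2j genes.

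Pla2g7, the secreted phospholipase that degrades platelet-activating factor, fell by 0.66 with 1 of its 2 probes (SE 0.139, adjusted p 0.00576), and the other gave -0.52 (adjusted p 0.103). The called probe ran from 6.93 through 7.33 to 8.13 in reference and from 6.28 through 6.68 to 7.09 in HFoleic, with 8 of 8 HFoleic arrays below the reference mean. HFepa ran from 6.78 through 7.13 to 7.44, with a median between those of the other groups. Ltb4r1, the high-affinity receptor of leukotriene B, fell by 0.31 (adjusted p 0.0398), the 1 call among 10 probes of 9 receptor genes. In HFepa against reference, which uses the same reference arrays, these 10 probes gave values from -0.53 for Cyp4a12a to 0.48 for Hpgd, and 0 passed the test (adjusted p 0.239 to 0.915).

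Most of these calls stood close to the threshold. Cyp4a14 and Pla2g7 passed under each of the 24 leave-outs, and the other 8 probes lost the call under 3 to 12 of them. When 1 array was left out, the number of called probes ranged from 2 (without reference replicate 1 or HFoleic replicate 8) to 14 (without reference replicate 8). It also fell to between 3 and 6 without reference replicate 3, 4, 6 or 7, or HFoleic replicate 1, 2, 3 or 4.

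**Figure D5:**
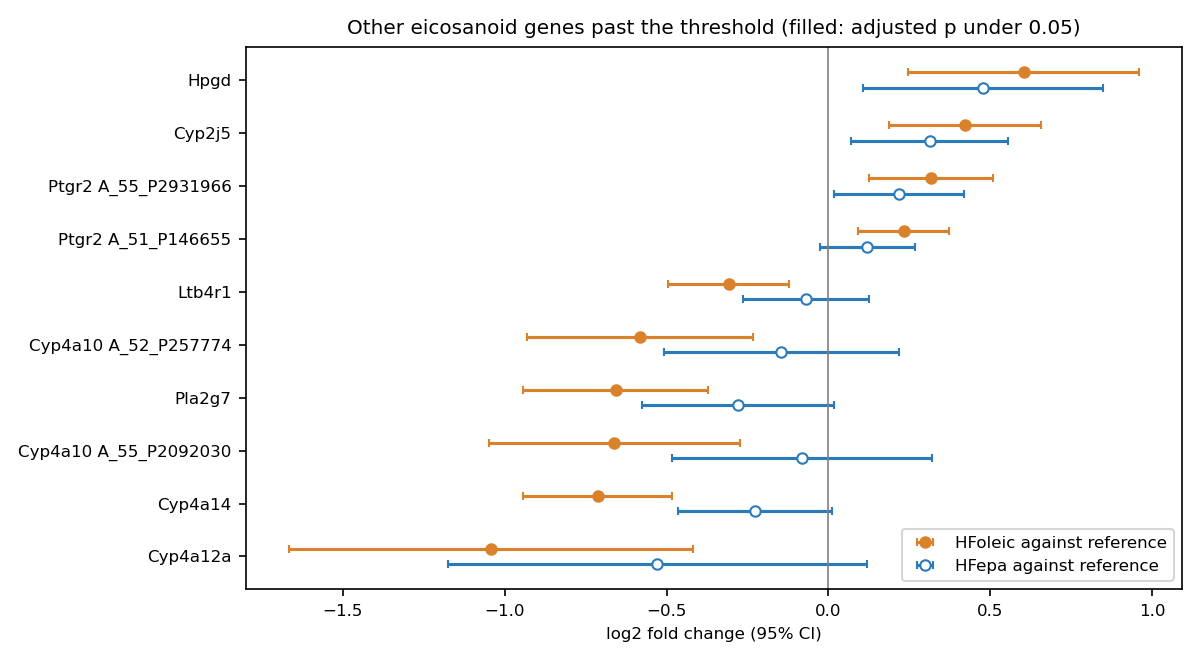
Differences on the log2 scale, with 95% confidence intervals from limma, of the 10 probes of further eicosanoid genes that passed the test in HFoleic against reference (orange), with the same probes in HFepa against reference (blue). Filled points are past an adjusted p of 0.05. Orange values run from -1.04 to 0.60 and blue values from -0.53 to 0.48, and both use the same reference arrays.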

How the data were processed

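Liver RNA of 24 mice was hybridised to Agilent SurePrint G3 mouse arrays in a single colour (Cy3). Per the file headers, Feature Extraction 10.10.1.1 gave the spot intensity values and the mark for well above background. The authors deposited a table of log2 values made from the median signal, filtered and quantile normalized. The exact filter is not given in the sources used here. Table columns correlated at 0.99968 or more with the scanner's log2 median signal. The deposited log2 values of 32176 probes were fitted with limma 3.58.1 (lmFit and eBayes, R 4.3.3) with the 3 groups as the design, and p-values were Benjamini-Hochberg adjusted over all of these probes, with a threshold of 0.05. Each group's replicates are separate mice. The number of arrays limits the precision.

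Probes outside the table were read from the scanner's median signal, quantile normalized over 56605 probes, and were not tested. The 24 arrays lay on 3 slides of 8, and scan time followed the slide. Control spots and outlier spots were left out, and 0 member spots were saturated. The table had 2550 empty cells, none of them in a member probe. Of the 16 member probes, 13 have a RefSeq accession, and all 13 matched the symbol in a RefSeq gene table.

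The members and the gene lists were chosen with earlier results of these data known. All probes of the 10 enzymes are named, and of the further genes those that passed the test. Alternatives were the scanner's signal with other background corrections and scalings, filters on dim probes, slide, slide row or replicate number as a block, array weights, a fit of only the groups compared, the methods' t-test, means over the probes of a gene, and each array left out in turn. The t-test named in the study's methods was run here with equal variances on the deposited values. The statistics were tested on simulated data. Figures used matplotlib 3.10.9.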

Additional observations from a re-analysis of the deposited data

Results flagged for a closer look

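Of 78 groups of arrays examined (each named probe in each group), 13 had 1 array whose gap to its nearest neighbour took a larger part of the group's range than Dixon's 95% criterion allows. Chance alone gives this in about 1 of 20 groups. The ratio of gap to range is given for each.

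Among the enzymes, Ephx2 was low in reference replicate 5 (16.76, next array 17.23, ratio 0.744) and in HFoleic replicate 2 (16.82, next 17.10, ratio 0.578). Lta4h was low in HFepa replicate 2 (10.33, next 10.56, ratio 0.633). The other such values of enzymes belong to probes rarely above background. Alox5 was high in reference replicate 9 (6.73, next 5.32, ratio 0.749), as was the Ptges probe at position 364 (6.84, next 5.78, ratio 0.608). The Ptges probe at position 740 was high in reference replicate 4 (5.90, next 5.40, ratio 0.658), and Alox15 in reference replicate 6 (5.94, next 5.39, ratio 0.505).

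Among the further genes, reference replicate 5 was low for both Cyp4a10 probes (14.34, next 15.35, ratio 0.681, and 13.32, next 14.51, ratio 0.689) and for Cyp4a12a (12.33, next 13.52, ratio 0.588). Cyp4a14 was high in HFepa replicate 2 (10.62, next 10.23, ratio 0.617), Ptgr2 was high in HFoleic replicate 8 (9.19, next 8.75, ratio 0.588), and Ltb4r1 was low in HFoleic replicate 6 (6.78, next 7.05, ratio 0.692). Reference replicate 5 accounts for 4 of the 13 values.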

How the results depend on the processing

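The Ptges difference in HFoleic against reference kept its direction under each alternative run (0.16 to 0.21). It missed the threshold with median centring (adjusted p 0.0904), with no filter on dim probes (0.0564), with the replicate block (0.0787), and without reference replicate 1 (0.0540) or HFoleic replicate 8 (0.0567). The causes were not tested. The count of enzyme probes called there, 1, became 0 under each of those 3 settings, 2 with slide row as a block, where the second Ptgs1 probe also passed, and 0 to 1 when 1 array was left out. The 10 called probes of further genes became 5 with processed signals, 4 with median centring, 3 without a filter, 6 with the replicate block, 17 with array weights, 3 with only the compared groups, 3 with the methods' t-test, and 2 to 14 when 1 array was left out. Over all probes, the 2122 calls became 1290 with median centring and 1362 over gene means. The 110 calls of HFepa against reference became 60 with processed signals, 18 with median centring, 30 over gene means, 0 without a filter, with only the compared groups or with the t-test, and 0 (without reference replicate 2, HFepa replicate 2 or HFepa replicate 6) to 467 (without reference replicate 8) when 1 array was left out. The study itself reported genes past its threshold in HFepa against reference, so the t-test as run here did not reproduce its calls. The 0 calls of HFepa against HFoleic became 2 with a stricter filter, 39 with array weights and 0 to 12 when 1 array was left out.

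Of 375 values of the enzyme probes under alternatives other than leave-outs, 360 kept sign and side of the threshold, and 11 uncalled ones changed sign. For HFoleic against reference these were Lta4h (probe A_55_P2934971: 0.0012 with processed signals, 4.6e-05 with normexp, -0.056 to 0.015 over leave-outs), the other Lta4h probe (-0.0044 over gene means, -0.0082 to 0.040) and Ephx1 (-0.0063 with median centring, -0.066 to 0.17). For HFepa against reference they were Alox5ap (0.018 with slide row, 0.020 with array weights, -0.082 to 0.047), Lta4h (A_55_P2934971: -0.0050 with median centring, -0.031 to 0.045) and Ephx2 (0.0044 with slide row, 0.0030 with the replicate block, -0.065 to 0.034). For HFepa against HFoleic they were Ptgs1 (-0.040 over gene means, -0.0019 to 0.065) and Lta4h (A_55_P2934971: -0.00018 with processed signals, -0.013 to 0.064), and over leave-outs alone Alox5ap (A_66_P105854: -0.018 to 0.11), Alox12 (-0.089 to 0.0060) and Ephx1 (-0.044 to 0.19). The correlation with macrophage markers lost its threshold within slide 2 for Ptgs1 (0.45, permutation p 0.257) and within slide 3 for Alox5ap (0.62, permutation p 0.103). It was 0.74 to 0.84 and 0.76 to 0.85 when 1 array was left out. Alox5 is outside the table, so its relation was not run, and scan time, being the slide, was no separate block.

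Replicate numbers did not pair the samples: over 22 same-numbered pairs the correlation of deviations was -0.28 to 0.34, above 0.1 in 3, and 3 of 21 samples correlated best with their own number. With the replicate block 1668, 84 and 0 probes were called in the 3 comparisons. Signal near background limits Ptgs2, Alox5 and Alox15.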
